A study of Arabidopsis thaliana with 6 samples.

Results

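Plant epidermal cells choose between a hair and a hairless fate through a shared set of transcription factors. The hairs are trichomes in leaves and root hairs in roots. An R2R3 MYB activator, a bHLH partner and the WD40 repeat protein TTG1 form a complex that switches on the homeobox gene GL2, and the same complex switches on small R3 MYB proteins that move into neighbouring cells and compete with the activator for the bHLH partner. In roots the complex marks hairless cells and the R3 MYBs permit hairs, whereas in leaves the complex starts trichomes and the R3 MYBs space them. The 10 genes described here are the activators WER (AT5G14750, chr5:4763372-4764834), GL1 (AT3G27920, chr3:10361790-10363607) and MYB23 (AT5G40330, chr5:16127725-16129661), the bHLH genes GL3 (AT5G41315, chr5:16529090-16533287) and EGL3 (AT1G63650, chr1:23599413-23603164), and TTG1 (AT5G24520, chr5:8370317-8372847). The inhibitors are CPC (AT2G46410, chr2:19049021-19050369), TRY (AT5G53200, chr5:21582614-21584243), ETC1 (AT1G01380, chr1:147043-148014) and ETC3 (AT4G01060, chr4:460395-461246), all in TAIR10.1 coordinates. They were chosen by locus, and each was looked up among the 33511 rows of the deposited expression table by its locus or one of its names.

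Their messenger RNA was compared between 3 libraries from estradiol-treated seedlings and 3 from mock-treated seedlings of Arabidopsis thaliana. Seedlings of both groups had the Col-0 background, were 4 days old and homozygous for iMUTE, a MUTE cDNA in pER8, a vector in which a synthetic activator drives the insert when estradiol is present. Estradiol seedlings received 10 µM of the inducer in liquid medium over 8 h and mock seedlings DMSO over the same time, and each replicate held a batch of whole seedlings. MUTE is a bHLH factor that drives stomatal precursors towards guard cells. Because every seedling carried the construct, the effects of MUTE, of estradiol and of the synthetic activator cannot be told apart, and in whole seedlings fewer cells of a type cannot be told apart from less RNA per cell.

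Of the 10 rows, 9 carried a name that belongs to 1 locus. The row for ETC3 did not: it is headed CPL3, a name that the RefSeq annotation gives both to AT4G01060, which is ETC3 (CAPRICE-like MYB3), and to AT2G33540, a phosphatase of the RNA polymerase II C-terminal domain. Neither locus had another row in the table, so the values of the CPL3 row cannot be assigned to ETC3 alone, and every value of it below is given for the row.

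The levels of MYB23, of CPC and of the CPL3 row, which may be ETC3, were those that passed the test given below. The 250 bases before the annotated start of MYB23, CPC and ETC3, from RefSeq's TAIR10.1 assembly, are shown as a description. ETC3 may not be the locus behind the CPL3 row, and the window of AT2G33540, the other locus of that name, is not shown. MUTE, GL3 and EGL3 all belong to the bHLH family, many of whose members bind the E-box CANNTG (the same on both strands). Capitals mark each E-box found. The windows are chr5:16127475-16127724 (plus strand) for MYB23, chr2:19050370-19050619 (minus strand) for CPC and chr4:460145-460394 (plus strand) for ETC3, and none of the 3 touches an annotated exon.
MYB23: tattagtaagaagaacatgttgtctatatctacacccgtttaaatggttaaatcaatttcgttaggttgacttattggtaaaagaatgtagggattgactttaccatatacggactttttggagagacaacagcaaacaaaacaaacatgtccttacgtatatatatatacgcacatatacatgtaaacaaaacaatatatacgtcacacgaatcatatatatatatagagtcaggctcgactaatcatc
CPC: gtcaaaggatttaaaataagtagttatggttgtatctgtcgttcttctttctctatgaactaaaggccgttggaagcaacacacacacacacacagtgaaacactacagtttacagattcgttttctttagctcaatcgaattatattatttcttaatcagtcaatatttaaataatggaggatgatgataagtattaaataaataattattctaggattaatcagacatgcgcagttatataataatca
ETC3: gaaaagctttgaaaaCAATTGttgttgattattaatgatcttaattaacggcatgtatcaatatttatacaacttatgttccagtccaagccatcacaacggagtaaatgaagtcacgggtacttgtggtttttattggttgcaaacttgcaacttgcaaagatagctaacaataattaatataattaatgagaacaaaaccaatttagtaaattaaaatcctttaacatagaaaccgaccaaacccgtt
The ETC3 window held 1 E-box, CAATTG, which begins 235 bases before the start, and the MYB23 and CPC windows held 0. WER, GL1, GL3, TTG1, TRY and ETC1, which were not called, held at least 1 E-box in the same window, and EGL3 held 0. Of 27443 protein-coding genes on the nuclear chromosomes, 55.3% had at least 1 E-box in the same window, so a window with or without one is common. A match of letters is a description and does not show binding.

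Most of the patterning factors stood at low levels in both groups. Values are FPKM, fragments scaled to transcript length and library size, a unit that lets levels of different genes be set side by side. In estradiol libraries the order of mean levels was TTG1, the CPL3 row, WER, CPC, MYB23, ETC1, GL1, GL3, EGL3 and TRY, from 5.41 ± 0.171 FPKM (SD, n = 3) for TTG1 to 0.893 ± 0.123 FPKM for TRY. In mock libraries it was TTG1, WER, CPC, MYB23, GL3, ETC1, GL1, TRY, EGL3 and the CPL3 row, from 5.73 ± 0.107 FPKM to 0.853 ± 0.193 FPKM (SD, n = 3). Neighbours from ETC1 down in estradiol libraries, and from GL3 down in mock libraries, had ranges that overlapped, so their order is not resolved, and CPC overlapped MYB23 in estradiol libraries. The CPL3 row was last in mock libraries and second in estradiol libraries.

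**Figure D1:**
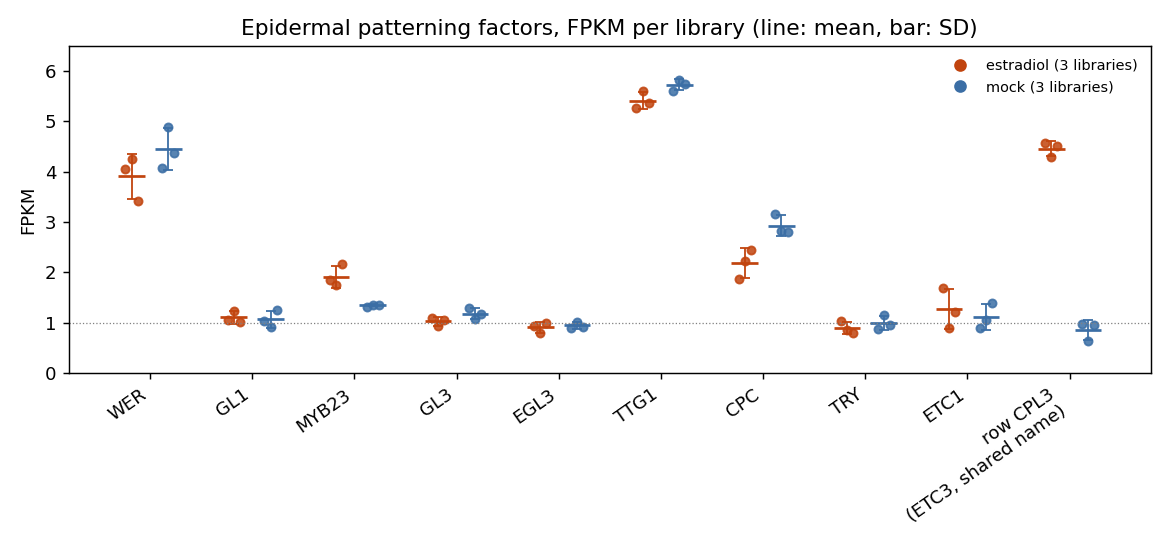
FPKM (y axis, linear) of the 10 patterning factors in each library, with estradiol libraries in orange and mock libraries in blue; short lines are means, bars are SD of 3 libraries and the dotted line is the filter level of 1 FPKM. The CPL3 row sits between 4.29 and 4.57 FPKM in estradiol libraries, above its mock values of 0.63 to 0.97 FPKM, MYB23 and CPC separate by less, and most others overlap.

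Genes entered the test when they reached 1 FPKM in at least 3 of the 6 libraries. Of the 10 patterning factors 8 did, and 2 rose, 1 fell and 5 did not pass a limma adjusted p of 0.05. Across all 19134 genes tested, 36.2% passed in either direction, 23.3% higher and 12.9% lower, so 3 of 8 is near the background. The median log2 fold change of the 8 was -0.02, beside 0.05 over all genes tested. Without the CPL3 row, 7 were tested, 1 rose and 1 fell, and the median was -0.07. Fold changes are estradiol minus mock in log2(FPKM + 1), so for genes at such levels they are smaller than the ratio of FPKM. Of all calls 64.3% were higher, against 52.8% when libraries were quantile-normalized and 46.9% when size factors were medians of ratios. The 3 calls among the patterning factors kept their direction and their side of the threshold under both scalings.

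Of the R2R3 MYB activators 1 rose and 2 did not pass. MYB23, which acts in trichome formation and takes part with WER in holding the hairless fate in roots, was at 1.84, 1.74 and 2.16 FPKM in estradiol libraries, against 1.32, 1.36 and 1.36 FPKM in mock libraries. Every estradiol value lay above every mock value. MYB23 rose by 0.31 in log2 units (SE 0.0687, limma adjusted p 0.00980), and 14 of 14 alternative settings called it, with adjusted p up to 0.0352. WER, the activator of the root's hairless cells, was at 4.05, 4.26 and 3.41 FPKM in estradiol libraries, against 4.07, 4.89 and 4.38 FPKM in mock libraries. The groups overlapped and WER did not pass (log2 fold change -0.15, SE 0.0819, limma adjusted p 0.181). GL1, the activator of leaf trichomes, was at 1.06, 1.24 and 1.01 FPKM in estradiol libraries, against 1.03, 0.92 and 1.25 FPKM in mock libraries. Its fitted change of 0.03 (SE 0.0811, limma adjusted p 0.821) was smaller than its own error and changed sign with median-of-ratios scaling. Added up, the activators came to 6.58 to 7.24 FPKM in estradiol libraries and 6.42 to 7.17 FPKM in mock libraries. Whether MYB23 differed from WER or GL1 in its change was not tested.

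None of the bHLH partners or the WD40 gene passed the test. GL3 was at 1.09, 0.93 and 1.06 FPKM in estradiol libraries, against 1.29, 1.07 and 1.18 FPKM in mock libraries. The groups overlapped, and the log2 fold change of -0.10 (SE 0.0687) did not pass (limma adjusted p 0.265). EGL3, which shares much of the work of GL3, was at 0.93, 0.79 and 0.99 FPKM in estradiol libraries, against 0.89, 1.02 and 0.92 FPKM in mock libraries, and reached 1 FPKM in 1 library only. It was therefore tested only without the filter, where its change was -0.03 (SE 0.0541, limma adjusted p 0.744). GL3 and EGL3 together came to 1.72 to 2.05 FPKM in estradiol libraries and 2.09 to 2.18 FPKM in mock libraries. That sum was not tested, and the groups of each gene alone overlapped. TTG1, the scaffold of the complex, was at 5.27, 5.60 and 5.36 FPKM in estradiol libraries, against 5.61, 5.82 and 5.75 FPKM in mock libraries. The estradiol values of TTG1 were all below the mock values, as the groups of 51.0% of genes tested did not overlap, yet the gap was small. Its log2 fold change was -0.07 (SE 0.0438, limma adjusted p 0.245), and the lowest adjusted p over the alternatives was 0.0597.

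Among the R3 MYB inhibitors, one fell and the CPL3 row rose. CPC, which moves from hairless cells into hair cells of the root and also acts against trichomes, was at 1.86, 2.23 and 2.45 FPKM in estradiol libraries, against 3.16, 2.83 and 2.80 FPKM in mock libraries. All estradiol values lay below all mock values. CPC fell by a log2 fold change of -0.31 (SE 0.0792, limma adjusted p 0.0179), a ratio of means of 0.744. The call rested in part on mock 1: without that library the change was -0.27 with a limma adjusted p of 0.0635, and it was past the threshold in the 13 other alternatives. The CPL3 row was at 4.57, 4.29 and 4.51 FPKM in estradiol libraries, against 0.97, 0.63 and 0.96 FPKM in mock libraries, a ratio of means of 5.22. The gap between the groups was many times the spread within either. Its log2 fold change was 1.56 (SE 0.0820, limma adjusted p 1.07e-05), a size that 0.167% of genes tested reached or passed in either direction. The row entered the test through the estradiol libraries alone, in which it is high. Under a filter on the mean of all 6 libraries (at least 0.5 FPKM) it entered too, with the same change and a limma adjusted p of 1.31e-05. How much of the rise belongs to ETC3, an R3 MYB that limits trichomes, and how much to the phosphatase gene cannot be told apart.

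The other inhibitors showed no call. TRY, which acts in the spacing of trichomes, was at 1.03, 0.86 and 0.79 FPKM in estradiol libraries, against 0.87, 1.15 and 0.96 FPKM in mock libraries, and was tested only without the filter (-0.07, SE 0.0716, limma adjusted p 0.523). TRY lies 1975 bases from SPCH, the bHLH gene that starts the stomatal lineage. SPCH was at 6.05 ± 0.702 FPKM in estradiol libraries and 5.11 ± 0.603 FPKM in mock libraries (SD, n = 3) and did not pass either (limma adjusted p 0.115). ETC1, which acts redundantly with TRY and CPC, was at 1.68, 0.90 and 1.22 FPKM in estradiol libraries, against 0.90, 1.05 and 1.39 FPKM in mock libraries. Its SE in log2(FPKM + 1) was the highest of the 8 patterning factors tested, and the log2 fold change of 0.09 (SE 0.134, limma adjusted p 0.621) changed sign without estradiol 1. ETC1 overlaps AT1G01390 on the opposite strand, and GL3 overlaps AT5G06145, a long noncoding RNA gene, in the same way. For both ETC1 and GL3, 0.0% of the 50-base exon stretches occurred in another gene. The libraries were stranded, but whether the counting used the strand is not given in the sources used here. Without the CPL3 row, the inhibitors CPC, TRY and ETC1 came to 3.99 to 4.57 FPKM in estradiol libraries and 4.93 to 5.15 FPKM in mock libraries. That sum was not tested.

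A two-sided exact permutation test of each gene's 3 estradiol against 3 mock values gave p = 0.1, below which 3 against 3 libraries cannot go, for MYB23, CPC, TTG1 and the CPL3 row, and 0.2 to 0.8 for the other patterning factors. Here 0.1 only means that the groups do not overlap, as was so for 51.0% of all genes tested. At most 1.001% of the 50-base exon stretches of any of the 10 loci occurred in another gene, so sharing of reads between copies was small at this length. The group labels were checked on the induced gene. MUTE stood at 2986 ± 54.8 FPKM in estradiol libraries and 2.37 ± 0.817 FPKM in mock libraries (SD, n = 3). Its row holds reads of the transgene and of the native gene alike. Between 18937 and 19092 rows reached 1 FPKM per library, and rows listed at 0 numbered 9514, 8583 and 9182 in estradiol 1, 2 and 3, against 8559 to 8679 in mock libraries. The number of fragments behind a value is unknown, so no counting interval is given.

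Genes around the complex were described in the same fit. Of 3 further R3 MYB genes of the TRY and CPC family, 2 were tested and 1 fell, beside 12.9% of all genes called lower. TCL2, which represses trichomes, was at 5.09, 4.72 and 3.28 FPKM in estradiol libraries, against 6.80, 7.38 and 7.20 FPKM in mock libraries. By these values TCL2 was the most abundant in mock seedlings among the R3 MYB genes given here, and others were not looked up. The groups did not overlap, and TCL2 fell by a log2 fold change of -0.62 (SE 0.119, limma adjusted p 0.00550) under all 14 alternatives. ETC2, at 1.08 ± 0.159 FPKM in estradiol libraries and 1.06 ± 0.179 FPKM in mock libraries (SD, n = 3), did not pass (limma adjusted p 0.941). TCL1, below the filter, was at 0.23, 0.14 and 0.28 FPKM in estradiol libraries, against 0.36, 0.34 and 0.45 FPKM in mock libraries, and passed when no filter was used (limma adjusted p 0.0463). In that fit 24.0% of 26727 genes passed. CPC and TCL2 thus fell while ETC1 and ETC2 did not pass in either direction, and whether these changes differ from one another was not tested.

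Of 9 related MYB and bHLH genes, which pair with TTG1 in other settings, 2 were tested and 1 fell, beside 12.9% of all genes called lower, a count too small to set against that share. MYB75, an activator of anthocyanin synthesis, was at 0.32, 0.48 and 0.89 FPKM in estradiol libraries, against 1.64, 1.96 and 1.25 FPKM in mock libraries. The groups did not overlap, with estradiol 3 nearest to mock, and MYB75 fell by a log2 fold change of -0.75 (SE 0.146, limma adjusted p 0.00565). TT8, its bHLH partner, was below the filter at 0.27, 0.19 and 0.36 FPKM in estradiol libraries, against 0.86, 0.76 and 0.72 FPKM in mock libraries. It passed without a filter (limma adjusted p 0.00257), a fit in which 24.0% of all genes passed. The other genes of this list below the filter did not pass in that fit, with limma adjusted p from 0.0563 to 0.897. MYC1, a bHLH gene related to GL3 that acts in the same complex, was at 2.59 ± 0.212 FPKM in estradiol libraries and 2.56 ± 0.0981 FPKM in mock libraries (SD, n = 3) and did not pass (limma adjusted p 0.907).

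The late anthocyanin genes, which the TTG1 complex activates with MYB75 and TT8, fell together. All 6 were tested and all 6 fell, with a median log2 fold change of -1.11, beside 0.05 over all genes and 12.9% of genes called lower. The list was chosen with earlier results of these data known, so its count is a description only. DFR, which encodes dihydroflavonol reductase, was at 1.45, 2.21 and 4.40 FPKM in estradiol libraries, against 8.60, 8.26 and 8.83 FPKM in mock libraries (log2 fold change -1.45, SE 0.24, limma adjusted p 0.00264). Estradiol 3 was the highest of its group for DFR, and the same held for the other 5 genes. LDOX, anthocyanidin synthase, averaged 1.67 ± 0.552 FPKM in estradiol libraries and 5.0 ± 0.172 FPKM in mock libraries (SD, n = 3), and UF3GT, an anthocyanin glycosyltransferase, 1.42 ± 0.434 and 3.93 ± 0.361 FPKM. TT19, a glutathione transferase needed to store anthocyanin, averaged 4.31 ± 1.002 FPKM in estradiol libraries and 11.3 ± 0.580 FPKM in mock libraries. AT5MAT, a malonyltransferase, fell by -0.88 (SE 0.135) and AT4G14090, a glucosyltransferase of anthocyanidins, by -0.62 (SE 0.0842). For the 5 genes after DFR, limma gave adjusted p values of at most 0.00187. Of the 50-base exon stretches of AT4G14090, 21.8% occur in another gene. AT4G14090 overlaps AT4G14100 and AT4G06175 on the opposite strand, and bases under exons of both strands count in that share.

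**Figure D2:**
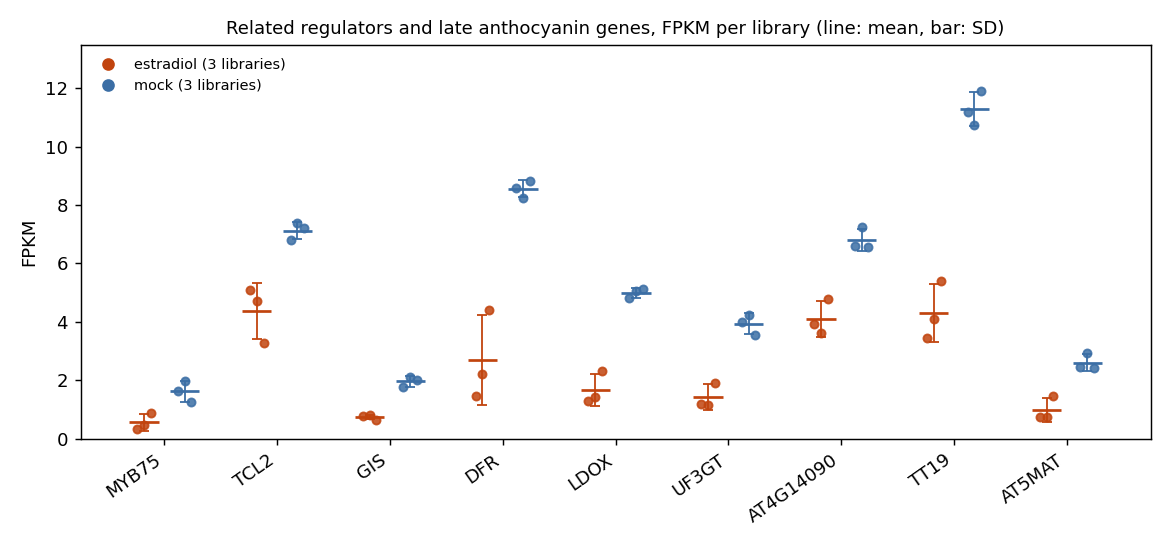
FPKM (y axis, linear) per library of MYB75, TCL2 and GIS and of the 6 late anthocyanin genes, with estradiol libraries in orange and mock libraries in blue; short lines are means and bars SD of 3 libraries. The genes shown were all among those called lower, so their direction follows from the choice. Each is lower in every estradiol library than in every mock library, and 51.0% of all genes tested had groups that do not overlap in either direction. For the 6 anthocyanin genes estradiol 3 is the highest of its group, as for DFR at 4.40 FPKM.

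Of 10 upstream regulators tested, 2 rose and 2 fell, beside 23.3% of all genes called higher and 12.9% called lower, so the count is near the background. GIS, a zinc-finger gene that promotes trichomes on shoot organs, was at 0.76, 0.81 and 0.65 FPKM in estradiol libraries, against 1.76, 2.1 and 2.02 FPKM in mock libraries. It fell by a log2 fold change of -0.77 (SE 0.0715, limma adjusted p 0.000185), and the groups were far apart relative to their spread. GIS and MYB75 entered the test through the mock libraries alone, in which they are high, and both passed under the mean filter too (limma adjusted p 0.000204 and 0.00623). ZFP8, a relative of GIS with a role in trichomes, fell by -0.31 (SE 0.0433, limma adjusted p 0.00115), with 16.75 ± 0.885 FPKM in estradiol libraries and 21.1 ± 0.192 FPKM in mock libraries (SD, n = 3). JKD, which acts in the root cortex on the pattern of hair cells, rose by 0.33 (SE 0.0567, limma adjusted p 0.00327), with 7.20 ± 0.264 FPKM in estradiol libraries and 5.54 ± 0.419 FPKM in mock libraries. GEM, which acts against GL2 and CPC expression in roots, rose by 0.18 (limma adjusted p 0.0428), a call that 9 of 14 alternatives did not make. SUB, the receptor-like kinase through which root epidermal cells read their position, listed as SCM, was at 9.30 ± 0.367 FPKM in estradiol libraries and 8.84 ± 0.147 FPKM in mock libraries (SD, n = 3) and did not pass (limma adjusted p 0.257). The zinc-finger gene AT1G68360 (-0.29), the ubiquitin ligase gene UPL3 (0.12), SPL9 (-0.11) and ZFP5 (-0.08) did not pass, with limma adjusted p from 0.0558 to 0.589. AT1G68360 passed in 3 of 14 alternatives, among them without estradiol 3 (limma adjusted p 0.0222), and UPL3 in 1, without mock 1 (0.0482).

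Of the genes that act after the complex, GL2 itself showed no change that passed. GL2 was at 9.22, 10.02 and 10.28 FPKM in estradiol libraries, against 9.29, 9.45 and 9.83 FPKM in mock libraries, and its groups overlapped (log2 fold change 0.04, SE 0.0489, limma adjusted p 0.537, of opposite sign under both scalings). TTG2, a WRKY gene switched on by the same complex, listed as DSL1, was at 1.05 ± 0.0709 FPKM in estradiol libraries and 1.13 ± 0.0346 FPKM in mock libraries (SD, n = 3) and did not pass (limma adjusted p 0.529). Of the 8 downstream genes tested, 2 rose and 1 fell, near the 36.2% of all genes called in either direction. RHD6, which GL2 represses in hairless cells, was at 3.37, 2.94 and 3.56 FPKM in estradiol libraries, against 2.39, 2.57 and 2.29 FPKM in mock libraries, and rose by 0.33 (SE 0.0687, limma adjusted p 0.00792). RSL2, another bHLH gene of root hair growth, rose by 0.40 (SE 0.0686, limma adjusted p 0.00305). RSL4, a bHLH gene that sets hair length, was at 3.22, 3.61 and 3.82 FPKM in estradiol libraries, against 4.92, 5.0 and 4.37 FPKM in mock libraries, and fell by a log2 fold change of -0.34 (SE 0.0683, limma adjusted p 0.00633). MYB106 (-0.14), SIM (-0.23) and HDG11 (-0.19), which act in trichomes, did not pass, with limma adjusted p from 0.0601 to 0.0923. SIM passed without estradiol 3 (limma adjusted p 0.00461), and SIM and MYB106 passed under both scalings. HDG11 passed with median-of-ratios scaling (limma adjusted p 0.0448) and without mock 3 (0.0412). Exon stretches shared with another gene were 71.7% of those of MYB106 and 25.4% of those of SIM, so their values are uncertain. MYB106 overlaps AT3G01142 and SIM overlaps AT5G04475, each on the opposite strand. Bases under exons of both strands count as shared here, so these shares need not mean a copy elsewhere.

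Of 6 genes that carry out root hair growth, all tested, 5 fell, beside 12.9% of all genes called lower. The median log2 fold change of the 6 was -0.42. Their summed level was 77.4 to 87.0 FPKM in estradiol libraries and 131.7 to 145.9 FPKM in mock libraries. PRP3, whose values follow, held the largest part of that sum in both groups. This list too was chosen with earlier results of these data known, so its count is a description only. PRP3, a structural cell wall protein of hairs, averaged 42.4 ± 5.77 FPKM in estradiol libraries and 80.7 ± 4.56 FPKM in mock libraries (SD, n = 3), and fell by a log2 fold change of -0.92 (SE 0.0919, limma adjusted p 0.000256). EXPA18, an expansin, fell by -0.69, LRX1 by -0.44, EXPA7 by -0.40 and COW1 by -0.37, each with a limma adjusted p of at most 0.00210. RHD2, the NADPH oxidase gene of hair tips, did not pass (-0.18, limma adjusted p 0.310). Its change was -0.34 without estradiol 2, where it passed (limma adjusted p 0.0145), and -0.06 without estradiol 3. The 5 called genes fell, as CPC and RSL4 did, whereas RHD6 and RSL2 rose and WER and GL2 did not pass. In a single comparison of groups, a shared direction does not link genes, and whether these changes are linked was not tested. The part of hair cell number in those values was not tested either.

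**Figure D3:**
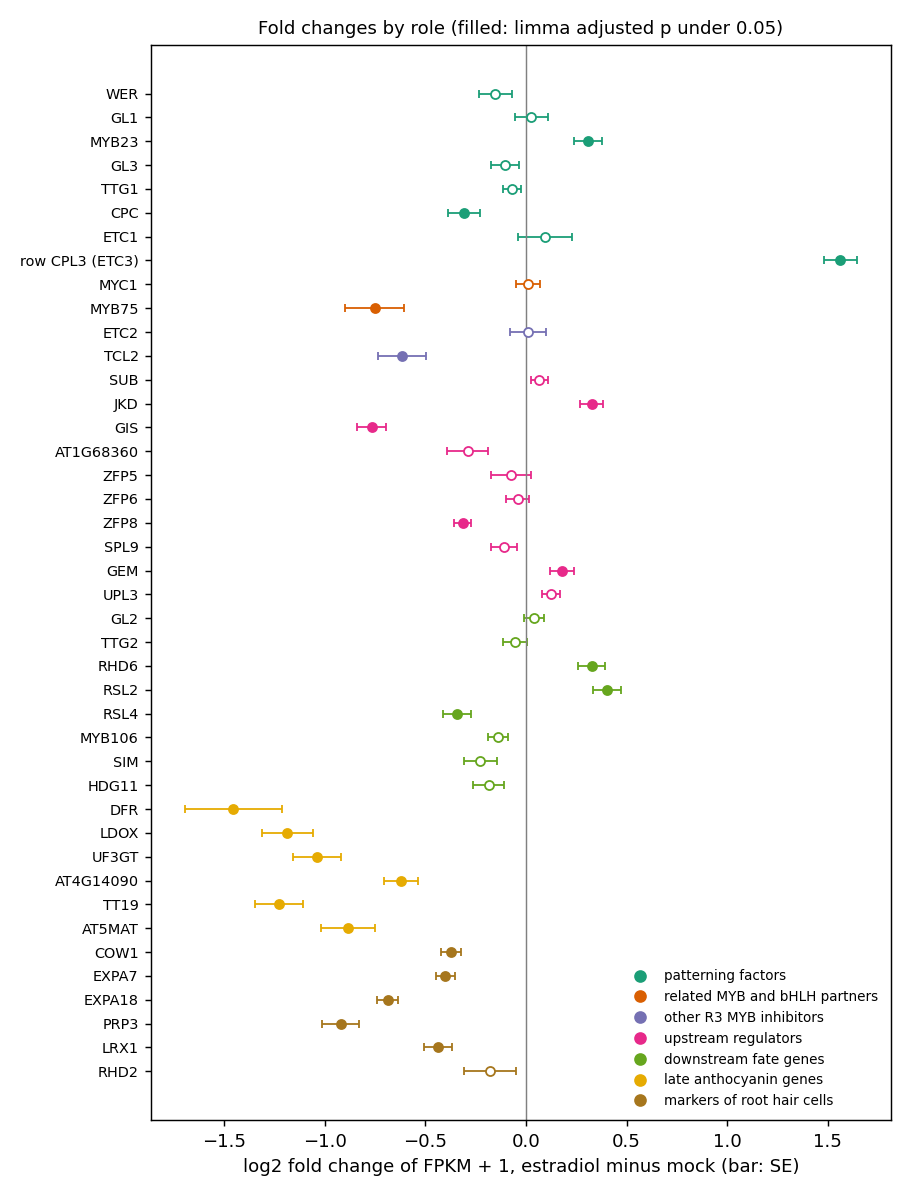
Log2 fold change of FPKM + 1 (x axis, estradiol minus mock, bars are SE) of the tested patterning factors and of the genes around them, coloured by list; filled points passed a limma adjusted p of 0.05. The 6 late anthocyanin genes lie between -1.45 and -0.62 and 5 of 6 root hair genes are filled on the left, while the patterning factors other than the CPL3 row, at 1.56, lie between -0.31 and 0.31.

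Markers of other tissues showed what the seedlings held. The 6 markers of other root tissues, among them PIN2 and SCR, summed to 47.1 to 47.8 FPKM in estradiol libraries and 44.4 to 47.3 FPKM in mock libraries, and 0 of the 5 tested passed by limma, with 0 at an unadjusted p under 0.05; without estradiol 2, 1 of them passed. Of the 2 shoot epidermis markers whose rows could be assigned, ATML1 stood at 10.44 ± 0.197 FPKM in estradiol libraries and 10.44 ± 0.243 FPKM in mock libraries (SD, n = 3), and PDF1 rose, with 206.2 ± 16.4 and 104.1 ± 8.08 FPKM. The name PDF1 belongs to 2 loci, and its row was assigned to AT2G42840 because the other locus, AT3G25800, has a row of its own. With names of 1 locus only, 0 shoot epidermis markers were called higher, since PDF1 is then left out. The mesophyll markers RBCS1A and CA1 summed to 6487 to 6816 FPKM in estradiol libraries and 6265 to 6676 FPKM in mock libraries. Most of that sum was RBCS1A, which averaged 6333 and 6089 FPKM and did not pass. CA1 fell, by a log2 fold change of -0.57. The mesophyll marker LHCB2.1 was left out, since the name of its row, LHCB2, belongs to 3 loci. That row did not pass (log2 fold change -0.24, limma adjusted p 0.0766). All markers tested were present in every library, and the part of tissue makeup in the changes of the patterning factors was not tested.

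The genes whose profiles came nearest to those of the 3 called factors were found by Euclidean distance between centred log2 values over the 6 libraries. For the CPL3 row they were CLE9, a small secreted peptide gene, at a distance of 0.277, ARGOS, a regulator of organ size, at 0.293, and AT3G22760 at 0.295. CLE9 averaged 9.32 ± 0.686 FPKM in estradiol libraries and 2.46 ± 0.114 FPKM in mock libraries (SD, n = 3). For MYB23 they were SADHU10-1 (0.0267), AT3G48120 (0.0535) and AT2G25980 (0.0569). For CPC they were ELIP1, an early light-induced protein gene (0.0505), AT2G26695 (0.0849) and DHS1 (0.0876). In a single comparison of groups, nearness mainly means a change of like size and direction. Whether any of these genes are linked was not tested.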

How the data were processed

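FPKM values of 6 libraries were deposited by the authors in 1 table, with 1 row per gene name. The submitters' processing notes name TopHat2 2.0.13, DESeq2 and the build TAIR10, without roles. The counter, the annotation, any scaling between libraries and the handling of names shared by several loci are not given in the sources used here. There was 1 further numeric column that matched no sample, and it was not used. Rows were paired with loci through RefSeq (TAIR10.1), which matched 97.6% of rows; 424 rows carried a name of more than 1 locus, and 211 of them could not be assigned and were left out of lists. The nuclear chromosomes of TAIR10.1 are taken to be those of TAIR10, and coordinates are those of TAIR10.1.

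Genes with FPKM of at least 1 in at least 3 libraries entered a limma 3.58.1 fit (R 4.3.3) after log2 transformation with a pseudocount of 1 (lmFit, eBayes with a mean-variance trend, group as the only term, two-sided, Benjamini-Hochberg over all genes tested, threshold 0.05). The fit was tested on simulated data. Python 3.11.15, pandas 2.3.3, numpy 2.4.6, scipy 1.17.1 and matplotlib 3.10.9 were used for the rest. Named genes were the members, every list gene that passed plus at most 5 more of that list by size of change, MUTE, and the 3 nearest profiles of the 3 members with the lowest adjusted p; SPCH, the marker genes, TT8 and TCL1 were chosen after their values were seen. Members and lists were chosen with earlier results of these data known. Replicates are separate batches of seedlings per the labels, so p-values measure the spread between such batches.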

Additional observations from a re-analysis of the deposited data

How the results depend on the processing

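Counts of calls and fold changes of genes that passed the filter were recomputed under 14 alternatives, 13 of them planned and 1, restricted to names of 1 locus, chosen after seeing the data. The CPL3 row had 13, EGL3, TRY and TT8 had 2 and TCL1 had 1, since the others leave them out, and the permutation tests and nearest profiles had none. Over all genes the count past the threshold stayed within 1.5 times of 6928, between 5337 and 6951, and MUTE rose throughout. Of the patterning factors past the threshold, 1 rather than 2 were higher with names of 1 locus only, since the CPL3 row is then left out by construction. Without single libraries the number lower was 0 to 1, and the log2 fold change of CPC was -0.37 to -0.23, with the call lost without mock 1 (-0.27). The sign of ETC1 ran from -0.035 to 0.21 and that of GL1 from -0.025 to 0.0898 when 1 library was left out, and GL1 was at -0.0035 with median-of-ratios scaling. The downstream genes called lower numbered 3 with quantile and 4 with median-of-ratios scaling, and 1 to 2 without single libraries. The related MYB and bHLH genes called lower numbered 2 with no filter and with the mean filter, and the other R3 MYB genes 2 with no filter, since further genes are then tested. The upstream regulators called higher numbered 1 with no filter, with either scaling and with the replicate block, and 1 to 2 without single libraries. Of single genes, GL2 was at -0.0104 and -0.0098 and MYC1 at -0.0208 and -0.0301 under quantile and median-of-ratios scaling, and ETC2 at -0.0185 under median-of-ratios scaling. Without single libraries ETC2 ran from -0.0523 to 0.0776, MYC1 from -0.0342 to 0.0499 and ZFP5 from -0.148 to 0.00141. The causes were not tested.

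Replicate numbers did not pair the libraries: deviations of same-numbered libraries correlated at -0.0064, 0.047 and -0.0020. With the replicate block 6038 genes passed, of which 5845 also passed in its absence, and MYB23 (limma adjusted p 0.0221), CPC (0.0443) and the CPL3 row (0.000185) passed. Sequencing depth is unknown, and for genes near 1 FPKM it limits how small a change can be seen.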
